A study of Mus musculus with 26 samples.

Results

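The 6 genes described here encode proteins that modify the anticodon loop of cytosolic tRNA-Phe, and they were taken by gene symbol from the tables of labelled mRNA. Trmt5, Tyw1, Trmt12 and Lcmt2 act in the wybutosine pathway, and Ftsj1 and Thada in ribose methylation. Each gene had 1 canonical coding transcript, so the 6 transcripts were read among 10104 listed for either cell type. All 6 were listed for oligodendrocytes (OLs), among 9751 transcripts, and 4 for oligodendrocyte progenitor cells (OPCs), among 8530. Trmt5 and Lcmt2 were listed for OLs alone, as were 15.6% of the 10104 transcripts, and give no value for OPCs. A gene that is not listed had no value to compare, and its level in OPCs was not analysed here.

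Labelled RNA was followed in 3 replicates of OPCs and 2 replicates of OLs, each sampled at 0, 1, 2, 4 and 6 h after the label was removed. The OPCs were cultured cells derived from epiblast stem cells of male 129S/SvEv mouse embryos and kept in bFGF and PDGFA. The OLs were differentiated from OPCs that had first been passaged without bFGF, in medium with noggin, IGF-1, cyclic AMP, NT3 and the thyroid hormone T3, and were a mixed culture that the study describes as retaining undifferentiated cells. Both cell types took up 5-ethynyluridine (5-EU), a uridine analogue, for 24 h (OLs from 40 h of differentiation), before uridine took its place. Values are FPKM (fragment counts divided by transcript length and by the mapped reads of the library), which allows levels of different genes to be compared per length.

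Wybutosine is a tricyclic base made from the guanosine that follows the anticodon of tRNA-Phe, where it helps to hold the reading frame. TRMT5 first methylates this guanosine, TYW1 builds the ring onto it, TRMT12 (also called TYW2) adds the side chain, and LCMT2 (also called TYW4) completes the later methyl transfer steps. FTSJ1 methylates riboses within the anticodon loop, with THADA as its partner at one site and WDR6 at another, and loss of human FTSJ1 is a cause of intellectual disability. tRNA-Phe reads the codons UUU and UUC, and the study asked whether its modification state and the decay of mRNAs rich in such codons change as OPCs become OLs.

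The members differ widely in structure. Positions are given on GRCm38 as annotated by GENCODE. Trmt12 (chr15:58872674-58877127, plus strand) and Lcmt2 (chr2:121137598-121140653, minus strand) each consist of 1 exon, as do 3.04% of the 10090 listed transcripts with a usable coding sequence. Trmt5 (chr12:73280011-73286709, minus strand) has 5 exons, Tyw1 (chr5:130257035-130341563, plus strand) has 16 and Ftsj1 (chrX:8238668-8252406, minus strand) has 13. Thada (chr17:84190076-84466116, minus strand) has 38 exons and 1938 codons, more codons than 97.3% of transcripts. Exons of Lcmt2 overlap those of Adal on the opposite strand, and exons of Thada overlap the antisense gene AC132455.1. The study's alignment and quantification commands set no strand option, so reads at these overlaps cannot be told apart.

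The codons that tRNA-Phe decodes are part of these mRNAs too. For each coding sequence the window of 10 codons with the most UUU codons is given, written as DNA with TTT in capitals.

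Trmt5: TTTgatgttTTTgctggggttgggcccTTT

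Tyw1: gcactgTTTggtgccagggaaagaggcTTT

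Trmt12: TTTgatgtgacacagtgcatgttctccTTT

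Lcmt2: gggaactgcTTTtccTTTggtacttatttc

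Ftsj1: tccactgccaaggagatcatccagcacTTT

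Thada: gttTTTctaactcaggcaacacacagtTTT

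These windows start at codons 296, 693, 200, 661, 96 and 109 in the order printed, and the Trmt5 window is the one with 3 UUU codons. UUU made up 54.2% of the Phe codons of Trmt5, 33.3% in Tyw1, 36.4% in Trmt12, 58.6% in Lcmt2, 25% in Ftsj1 and 47.9% in Thada, against a median of 44.4% over all transcripts. Lcmt2 lay at the 75.6th percentile of this share and Ftsj1 at the 15.8th. AAA, the Lys codon that the study followed beside UUU, made up 66.7% of the Lys codons of Trmt12 (12 AAA and 6 AAG) and 61.3% of those of Trmt5, at the 96.2nd and 92.6th percentiles. It made up 46.3% in Thada, 33.3% in Lcmt2, 27.3% in Tyw1 and 16.7% in Ftsj1, with a median of 37.5% over all transcripts. The wybutosine genes thus do not share 1 codon profile, and Ftsj1 was lowest of the 6 for both codons.

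The 3′ untranslated regions (3′ UTRs) were searched on the mRNA strand, overlaps included, for the AU-rich core ATTTA and for TGTANATA, the element bound by Pumilio proteins. TGTANATA was found in none of the 6, and in 26.5% of all 10090 transcripts. ATTTA occurred 4 times in Lcmt2, 3 times in Thada, once each in Tyw1, Trmt5 and Trmt12 and not at all in Ftsj1, and at least once in 69.1% of all transcripts. The matches in the 3 members with the shortest OL half-lives follow with flanking bases, the core in capitals, and those of Lcmt2 in their order along the 3′ UTR.

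Trmt5: acttggaaATTTAtgtaagga

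Trmt12: ggtcttggATTTAtttgcata

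Lcmt2 (a): cttgatatATTTAggacctaa

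Lcmt2 (b): gacctattATTTAttgagtca

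Lcmt2 (c): tgttttatATTTAtctagctt

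Lcmt2 (d): aaccagacATTTAatgcctta

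A match is a stretch of letters and not a shown binding site. Per kilobase of 3′ UTR, Lcmt2 held 4.25 matches, at the 89.2nd percentile of all transcripts, and Trmt12, whose 3′ UTR is 3032 bases long, held 0.330, at the 30.3rd.

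The cell type labels were checked against marker genes at 0 h. Of 10 OL markers, 10 were listed for OLs, with summed FPKM of 2840 to 6200, and 2 for OPCs, with 37.6 to 55.1. All 6 OPC markers were listed for both (528 to 643 in OPCs, 779 to 859 in OLs), but they moved in opposite directions. Gpr17 (5.00 to 6.61 FPKM in OPCs, 323 and 299 in OLs), Sox10 and Pdgfra were higher in both OL replicates. Olig2 (316 to 332 in OPCs, 218 and 190 in OLs) and Cspg4 were lower, and Ptprz1 overlapped. All 4 markers of proliferation were listed for OPCs (191 to 320) and 3, without Cdk1, for OLs (21.1 to 53.5). Of 6 astrocyte markers 2 were listed for OPCs (202 to 249) and 4 for OLs (181 to 261), with Gfap and Aldh1l1 in OLs alone and Aqp4 and Gjb6 in neither. Of 5 neuron markers 1 was listed for OPCs (13.2 to 17.4) and 2 for OLs (25.9 to 27.7), and none of 4 pluripotency markers was listed for either. These values move with cell type, as each comparison below does, and their part in the results was not tested. Fewer cells of a type and less RNA per cell cannot be told apart in such cultures. At 6 h, 15.7% to 21.6% of transcripts were listed at 0 in the OPC libraries and 0.790% and 4.08% in the OL libraries.

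At 0 h, before the chase, labelled mRNA of 3 of the 4 genes listed for both cell types was lower in both OL replicates than in all 3 OPC replicates, and that of Trmt12 was higher. In all, 31.4% of 8177 shared transcripts lay lower in this way and 28% higher. Thada was the member that passed the test in this comparison, where 17.5% of transcripts were lower in OLs and 14.1% higher at an adjusted p under 0.05 (limma on log2(FPKM + 1)). These 0 h levels are read as FPKM without spike-in scaling, since the values are written with up to 6 decimals at 0 h and with at most 6 significant digits later, and this reading has no other test. The median difference over all shared transcripts was -0.01. The study's own test of modification enzymes included these 0 h libraries, so the direction of a member here is not independent evidence of what it found.

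Tyw1, which makes the ring of wybutosine, stood at 21.7, 14.5 and 17.3 FPKM in OPCs (replicates in order) and at 11.5 and 9.26 FPKM in OLs. The means were 17.9 ± 3.65 (SD, n = 3) and 10.4 ± 1.57 (SD, n = 2), and the groups did not overlap. The difference in log2(FPKM + 1) was -0.72 ± 0.27 (SE), with an adjusted p of 0.0695 by limma, which did not pass. Of 10 alternative fits it passed in 1, without OPC replicate 2, the lowest of its group (adjusted p = 0.0424). The adjusted p was 0.174 without OPC replicate 3 and 0.168 with a block for same-numbered replicates.

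Trmt12, which transfers the side chain, was the member that was higher in OLs, at 9.11 and 9.31 FPKM against 7.56, 7.44 and 6.40 FPKM in OPCs. All values of each group lay close together, with means of 9.21 ± 0.141 (SD, n = 2) and 7.13 ± 0.637 (SD, n = 3). The difference in log2(FPKM + 1) was 0.33 ± 0.27 (SE) and did not pass (limma adjusted p = 0.37). Tyw1 and Trmt12, which act at neighbouring steps of the same pathway, thus had differences of opposite sign, neither of which passed.

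The remaining wybutosine genes have OL values alone. Trmt5, the methyltransferase that opens the pathway, stood at 5.74 and 7.42 FPKM, and Lcmt2, which closes it, at 4.84 and 11.3 FPKM. The Lcmt2 replicates had the largest SD at 0 h of any member in either cell type, with a mean of 8.06 ± 4.56 FPKM (SD, n = 2) against 6.58 ± 1.19 for Trmt5.

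Of the ribose methylation genes, Ftsj1 (the methyltransferase) stood at 13.6, 9.30 and 10.4 FPKM in OPCs and at 8.75 and 6.72 FPKM in OLs. These groups did not overlap, but their nearest values, in OPC replicate 2 and OL replicate 1, lay close together. The difference in log2(FPKM + 1) was -0.47 ± 0.29 (SE; limma adjusted p = 0.242), and -0.30 without OL replicate 2 (0.611).

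Thada, its partner, stood at 12.2, 17 and 13.9 FPKM in OPCs and at 5.95 and 7.38 FPKM in OLs, so that every OL value lay well below every OPC value. The means were 14.4 ± 2.40 (SD, n = 3) and 6.66 ± 1.01 (SD, n = 2). The difference in log2(FPKM + 1) was -1.0 ± 0.27 (SE; limma adjusted p = 0.0224), at the 10.3rd percentile of all differences. The call was lost without OPC replicate 3 (adjusted p = 0.0793), with a block for same-numbered replicates (0.0559) and without either OL replicate. The difference stayed between -1.13 and -0.86 in these fits.

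**Figure D1:**
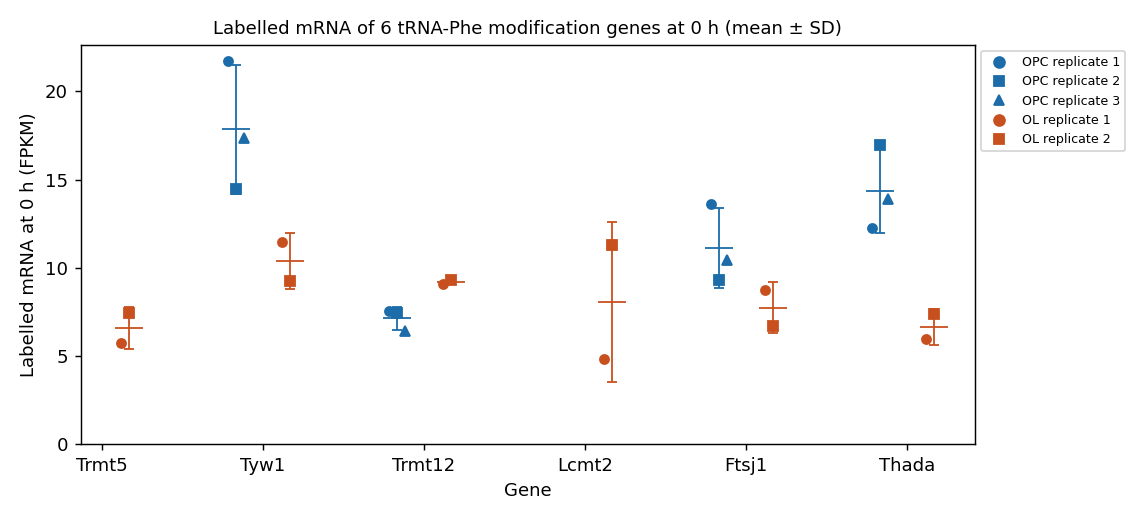
Labelled mRNA at 0 h (FPKM, vertical axis) of the 6 genes in each replicate of OPCs (blue) and OLs (orange), with the mean and SD. The OL points of Tyw1, Ftsj1 and Thada lie below their OPC points, those of Trmt12 lie above, and Trmt5 and Lcmt2 have OL points alone.

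Ordered by mean FPKM in OPCs, Tyw1 (17.9) was followed by Thada (14.4), Ftsj1 (11.1) and Trmt12 (7.13). Tyw1 and Thada overlapped between replicates, as did Thada and Ftsj1, whereas every Ftsj1 value lay above every Trmt12 value. In OLs the order was Tyw1 (10.4), Trmt12 (9.21), Lcmt2 (8.06), Ftsj1 (7.73), Thada (6.66) and Trmt5 (6.58), and each gene overlapped with the next. All 6 are expressed at low to middling levels, since the highest percentile any of them reached at 0 h was the 56.7th, for Tyw1 in OPC replicate 1.

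During the chase every member declined. The slope of log2(FPKM + 1) over time was below 0 with an adjusted p under 0.05 for 4 of 4 members in OPCs and 6 of 6 in OLs (limma, with replicate as a term). The same held for 81.9% of all transcripts in OPCs and 68.9% in OLs, so these counts are close to the background. The median slope over all transcripts was -0.38 log2 units per h in OPCs and -0.20 in OLs. When each library was scaled to its own replicate's 0 h median these medians became -0.02 and 0.01, and over all transcripts the calls went from 6989 falling and 432 rising to 2146 and 2894 in OPCs and from 6716 and 193 to 1879 and 3015 in OLs. The members are therefore best read against the median transcript.

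In OPCs, Thada fell by 0.61 log2 units per h (-0.61 ± 0.06, SE; limma adjusted p = 2.04e-08) and Tyw1 by 0.60 (-0.60 ± 0.08; 2.73e-07), both steeper than the median, by -0.23 and -0.22. Both also kept their call when libraries were scaled to the 0 h median. Trmt12 fell by 0.40 (-0.40 ± 0.07; 7.95e-06) and Ftsj1 by 0.35 (-0.35 ± 0.06; 2.89e-05), within -0.02 and 0.03 of the median. Scaled to the 0 h median, Trmt12 no longer passed (adjusted p = 0.121) and the Ftsj1 slope was 0.05 (adjusted p = 0.571).

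In OLs, Trmt5 had the steepest slope of the 6 (-0.40 ± 0.05 log2 units per h, SE; limma adjusted p = 8.35e-06), steeper than the median by -0.19. It was the member that passed in OLs also with libraries scaled to the 0 h median. Trmt12 (-0.33 ± 0.07), Lcmt2 (-0.31 ± 0.08), Thada (-0.29 ± 0.06) and Tyw1 (-0.27 ± 0.05) lay below the median by -0.13, -0.11, -0.09 and -0.06, and their adjusted p was 0.000592 for Trmt12, 0.00177 for Lcmt2, 0.000201 for Thada and 0.000314 for Tyw1. After the scaling these became 0.0633, 0.105, 0.0627 and 0.488. The Lcmt2 slope was -0.19 without OL replicate 2, where its call was lost (adjusted p = 0.0556). Ftsj1 had the shallowest slope (-0.18 ± 0.06; adjusted p = 0.0196), which was 0.04 after the scaling and did not pass without the 6 h libraries (adjusted p = 0.74) or without OL replicate 1 (0.0805).

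**Figure D2:**
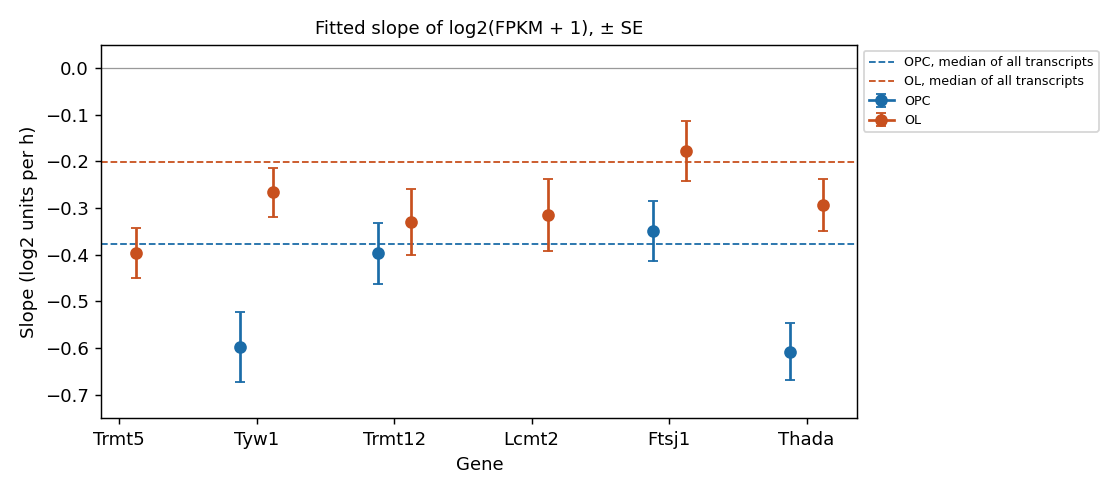
Fitted slope of log2(FPKM + 1) per h of chase (vertical axis, ± SE) for each gene in OPCs (blue) and OLs (orange), with the median slope of all transcripts as dashed lines. Tyw1 and Thada lie well below the OPC median, and Trmt5 lies lowest against the OL median.

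Whether the decline differs between cell types was tested on the slopes of the 5 replicates. It was shallower in OLs for Tyw1, by 0.33 ± 0.10 log2 units per h (SE; limma adjusted p = 0.0207), and for Thada, by 0.31 ± 0.10 (0.0287). The same call was made for 25.2% of the 8177 shared transcripts (2059, against 14 steeper in OLs), and the median difference over all transcripts was 0.14. Relative to that median, Tyw1 and Thada differed by 0.19 and 0.17. The differences of Ftsj1 (0.17 ± 0.10, adjusted p = 0.223) and Trmt12 (0.07 ± 0.08, 0.574) did not pass. That of Trmt12 was 0.01 without OL replicate 1, 0.12 without OL replicate 2 and 0.04 without OPC replicate 2. It was 0.21 with a pseudocount of 0.1 and 0.19 without the 6 h libraries, where the medians of all transcripts were 0.22 and 0.15.

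Neither call held when libraries were scaled to their 0 h median, where Tyw1 was at 0.17 (adjusted p = 0.331) and Thada at 0.25 (0.324) and all transcripts split into 148 shallower and 266 steeper in OLs. Both calls were also lost without either OL replicate. The Tyw1 difference was 0.37 without OL replicate 1 and 0.29 without OL replicate 2, and that of Thada 0.23 and 0.39. With a pseudocount of 0.1 the calls were lost at 0.44 (Tyw1, limma adjusted p = 0.0709) and 0.51 (Thada, 0.109). The median of all transcripts was 0.22 there. The Thada call was lost too without OPC replicate 2 (0.25, adjusted p = 0.0719), OPC replicate 3 (0.30, 0.0699) or the 6 h libraries (0.31, 0.159).

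The time course shows where the Tyw1 curves part. At 1 and 2 h, labelled Tyw1 was at 63.0% and 45.4% of its 0 h level in OPC replicate 1, at 106% and 87.8% in OPC replicate 2 and at 68.7% and 37.4% in OPC replicate 3. At 4 h it had fallen to 6.29%, 5.06% and 3.41%, and at 6 h it was at 3.71%, 8.50% and 11.3%. The OL replicates were at 70.8% and 98.5% at 1 h, 71.2% and 63.9% at 2 h, 25.3% and 30.4% at 4 h and 25.2% and 41.7% at 6 h. OPC and OL values thus overlapped at 1 and 2 h and lay apart at 4 and 6 h. The median transcript itself stood lower in OPCs at 4 h, at 39.0%, 20.4% and 37.0% against 55.4% and 55.0%. Divided by that median, Tyw1 at 4 h was at 0.161, 0.248 and 0.0921 in OPCs and at 0.458 and 0.553 in OLs, and at 6 h at 0.258, 0.774 and 0.636 in OPCs and at 0.800 and 1.14 in OLs. The separation at 4 h was seen also on this relative scale. It was picked out after the curves were seen and has no test.

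Trmt12 was lost early in both cell types. At 1 h it was at 19.2%, 62.7% and 44.1% of its 0 h level in OPCs and at 20.3% and 53.8% in OLs, and at 2 h at 8.99%, 13.5% and 19.5% in OPCs and at 17.6% and 21.1% in OLs. At 4 h the OPC replicates were at 7.74%, 2.07% and 13.6% and the OL replicates at 25.8% and 18.0%, and at 6 h at 4.49%, 6.61% and 3.35% and at 9.92% and 8.65%. Most of the loss thus fell in the first 2 h in every replicate, and at 2 h no replicate held more than 0.335 of its library's median relative level.

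Trmt5 showed a regular decline in both OL replicates, to 45.6% and 50.4% at 1 h, 27.5% and 27.9% at 2 h and 21.8% and 13% at 4 h. At 6 h it was listed at 0 in OL replicate 1 and stood at 7.34% in OL replicate 2. Lcmt2 was at 31.6% and 26.3% at 1 h, 38.2% and 7.48% at 2 h, 24.0% and 13.6% at 4 h and 22.5% and 2.29% at 6 h. The Trmt5 replicates lay close together at 1 and 2 h, whereas those of Lcmt2 parted at 2 h, with OL replicate 2, which began higher, falling further.

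Thada declined steadily in OPCs, to 59.5%, 81.4% and 71.3% at 1 h, 33.3%, 56.7% and 41.5% at 2 h and 20.0%, 4.13% and 21.1% at 4 h. At 6 h it was at 5.90% and 1.52% in OPC replicates 1 and 2 and listed at 0 in OPC replicate 3. In OLs it was at 45.6% and 60.1% at 1 h, 40.3% and 30.6% at 2 h, 41.4% and 24.0% at 4 h and 20.2% and 7.71% at 6 h. At 1 h Thada was lower in OL replicate 1 than in any OPC replicate, and it changed little there between 1 and 4 h.

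Ftsj1 did not follow a simple decay in OLs. OL replicate 1 was at 68.1%, 120%, 114% and 24.9% of its 0 h level at 1, 2, 4 and 6 h, and OL replicate 2 at 143%, 127%, 63.8% and 62.0%. Both replicates were thus above their 0 h level at 2 h, and each was above it at 1 other time point. In OPCs it was at 46.9%, 73.0%, 54.1% and 18.0% in replicate 1, at 86.3%, 79.1%, 23.7% and 7.98% in replicate 2 and at 62.4%, 45.6%, 73.1% and 10.4% in replicate 3, with no value above 100%.

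**Figure D3:**
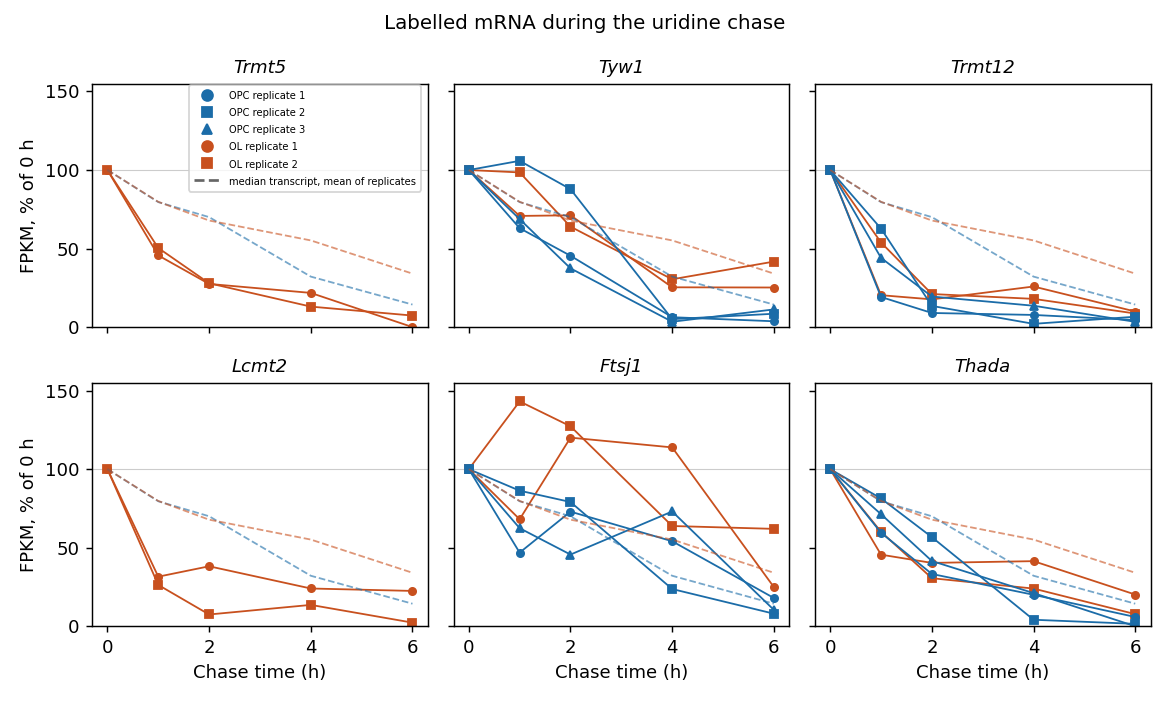
FPKM relative to 0 h (percent, vertical axis) against chase time (h) for the 6 genes in each replicate of OPCs (blue) and OLs (orange), with the median transcript as dashed lines (mean of the replicates' medians). Tyw1 drops to 3.41% to 6.29% at 4 h in OPCs against 25.3% and 30.4% in OLs, and Ftsj1 rises above 100% in both OL replicates at 2 h.

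The share kept at 6 h was higher in both OL replicates than in all 3 OPC replicates for 4 of 4 members, as it was for 48.9% of shared transcripts. Divided by the median share of its library, it was higher in this way for 1 of 4 members, Tyw1, and for 16.8% of shared transcripts, while the groups of Trmt12, Ftsj1 and Thada overlapped. The Tyw1 means were 7.82 ± 3.82% (SD, n = 3) for OPCs against 33.5 ± 11.7% (SD, n = 2) for OLs (exact two-sided permutation p = 0.1, the smallest that 3 against 2 replicates allow). For Ftsj1 the means were 12.1 ± 5.21% and 43.5 ± 26.2% (exact permutation p = 0.1), for Thada 2.47 ± 3.06% and 13.9 ± 8.81% (exact permutation p = 0.1) and for Trmt12 4.82 ± 1.65% and 9.28 ± 0.894% (exact permutation p = 0.2). Over the 12 such tests made for 3 measures of the members, the lowest Benjamini-Hochberg adjusted value was 0.24.

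Half-lives are those the authors fitted as a single exponential by least absolute deviations, with longer estimates set to a ceiling of 6 h. That fit has a property which touches these genes. When the best curve passes through none of the measured points, the estimate stops at a value that depends on the time points alone, and 4 such values, 0.704, 0.760, 1.86 and 1.96 h, were recognised. They held 5.87%, 27.2% and 8.74% of the transcripts of OPC replicates 1 to 3, respectively, but 0.928% and 2.62% of those of the OL replicates. In OPC replicate 2 all 4 members were at one, Tyw1, Ftsj1 and Thada at 1.96 h, a value that 2174 transcripts of that replicate shared, and Trmt12 at 0.760 h. The equal half-lives of Tyw1, Ftsj1 and Thada in that replicate are therefore not 3 separate measurements of the same stability.

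No member passed the test of half-life between cell types, where 3.39% of 8112 transcripts were longer in OLs and 0.148% shorter (limma on log2 half-life; 275 and 12, or 88 and 194 with every replicate brought to 1 mean decay curve). At an unadjusted p under 0.05, 1 of 4 members was longer, which was Tyw1, against 22.2% of transcripts longer and 0.801% shorter, so this count is near the background. The median difference over all transcripts was 0.37 on the log2 scale.

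Tyw1 had half-lives of 1.5, 1.96 and 1.41 h in OPCs and of 3.02 and 3.10 h in OLs, with means of 1.62 ± 0.294 h (SD, n = 3) and 3.06 ± 0.0587 h (SD, n = 2). The groups did not overlap, and both OL values lay above all OPC values as they did for 35.9% of transcripts. The log2 difference of 0.93 ± 0.18 (SE) had an adjusted p of 0.0944 by limma, which was 0.0396 without OPC replicate 2, the replicate at the fixed value, and at least 0.0938 in each of the other alternative fits. Leaving the 6 h time point out of the decay fit brought the difference to 0.13 (adjusted p = 1) and OPC replicate 2 to 5.66 h. It was 0.53 (adjusted p = 0.515) with 1 mean decay curve and 0.03 (adjusted p = 0.958) centred on the replicate median. Ranked within its replicate, the half-life of Tyw1 lay at percentiles 26.9, 23.3 and 15.2 in OPCs and 38.3 and 37.0 in OLs (exact two-sided permutation p = 0.1), and 15.3% of transcripts ranked higher in both OL replicates.

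Trmt12 was among the shortest-lived transcripts in every replicate, at 0.420, 0.760 and 0.847 h in OPCs and 0.435 and 1.12 h in OLs. These values lay at percentiles 0.589, 1.53 and 3.37 in OPCs and 0.577 and 1.89 in OLs, so the cell types overlapped in hours and in rank. The log2 difference was 0.11 ± 0.61 (SE; limma adjusted p = 1), and its sign changed in 5 of 14 alternative fits.

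In OLs the other genes without OPC values were short-lived as well. Trmt5 had half-lives of 1.07 and 1.09 h, at percentiles 7.09 and 1.68, and Lcmt2 of 1.44 and 0.519 h, at percentiles 14.3 and 0.134. All 3 of these wybutosine genes thus lay at or below percentile 14.3 in both OL replicates, whereas Tyw1 did not. Trmt12 and Lcmt2 share the single-exon structure. Single-exon transcripts had lower median half-lives than others in every replicate, at 1.61, 1.92 and 1.93 h against 2.37, 2.07 and 2.83 h in OPCs and at 3.30 and 2.42 h against 4.19 and 4.14 h in OLs. Between 5.39% and 15.5% of them lay in the lowest 5% of half-lives, so the ranks of Trmt12 are low also among single-exon transcripts. This is a description across transcripts, which share libraries and are not replicates.

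Ftsj1 had half-lives of 4.40, 1.96 and 1.77 h in OPCs and stood at the ceiling of 6 h in each OL replicate. The absolute residuals of its fits summed to 60.3%, 50.5% and 58.3% of the 0 h level in OPCs and to 137% and 102% in OLs, the largest of the members, so the ceiling describes curves that an exponential fitted poorly. With both OL values set to the ceiling, the log2 difference of 1.28 (limma adjusted p = 0.266) is not an exact size and holds no spread between OL replicates. Of the alternative fits it passed in 1, without OPC replicate 1 (adjusted p = 0.0347). It became 0.68 (adjusted p = 0.647) with 1 mean decay curve and 0.37 (0.57) centred on the replicate median. Averaged over the chase, Ftsj1 stood at 54.5 ± 2.41% of its 0 h level in OPCs (SD, n = 3), against 93.7 ± 2.69% for OLs (SD, n = 2; exact two-sided permutation p = 0.1), and 36.2% of transcripts lay higher in both OL replicates in the same way. Tested by limma over all transcripts on a log2 scale, this average, which uses no fitted curve, differed by 0.78 ± 0.22 (SE; adjusted p = 0.0584) and did not pass.

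Thada had half-lives of 1.34, 1.96 and 1.78 h in OPCs and of 2.60 and 1.36 h in OLs. The groups overlapped, and the log2 difference was 0.17 ± 0.38 (SE; limma adjusted p = 0.927). In rank it moved from percentiles 21.6, 38.8 and 23.4 in OPCs to 31.3 and 4.10 in OLs, where the replicates disagreed (exact permutation p = 0.6). The sign of the half-life difference changed in 5 of 14 alternative fits. Thada thus passed the test of slope and did not pass that of half-life, and why these measures differ was not tested.

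**Figure D4:**
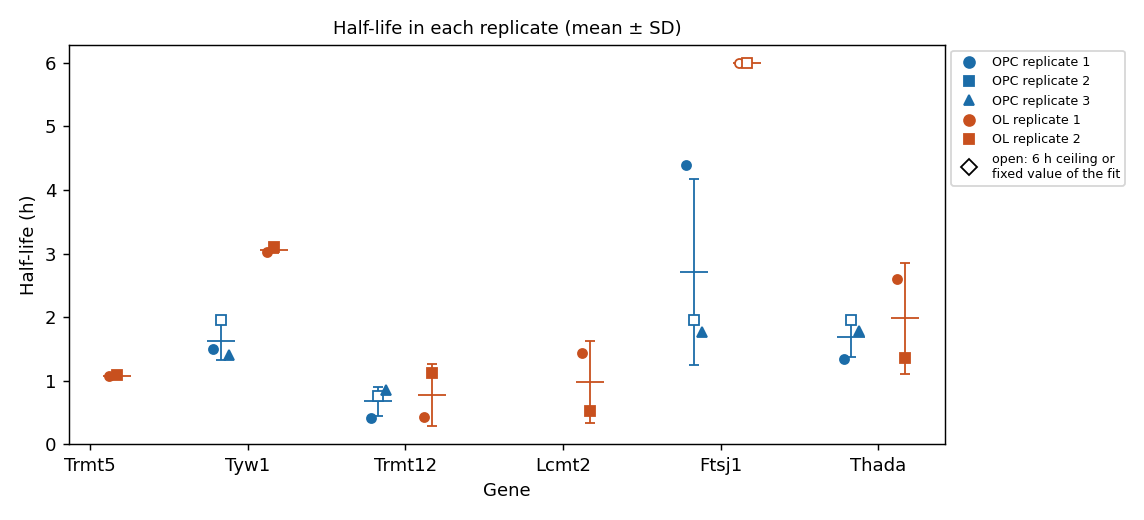
Half-life (h, vertical axis) of each gene in every replicate of OPCs (blue) and OLs (orange), with the mean and SD, and open symbols for values at the 6 h ceiling or at a fixed value of the fit. The Tyw1 points of OLs (3.02 and 3.10 h) lie above those of OPCs, and Trmt12, Trmt5 and Lcmt2 lie at or below 1.44 h throughout.

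Which other transcripts followed the members most closely was described by Pearson's r of median-centred log2(FPKM + 1), among transcripts with a mean of at least 5 FPKM at 0 h. For genes listed in both cell types it was taken over the 25 libraries, which share the 5 time courses. Tyw1 was most like Polr1b (0.84), Rnf4 (0.80) and Qrich1 (0.80), and Trmt12 like Tob2 (0.88), Mex3b (0.87) and Zcchc3 (0.87). Ftsj1 was most like Fbxw5 (0.81), Srprb (0.78) and Tmem9 (0.77), and Thada like Dpf1 (0.92), Tcf19 (0.91) and Mms22l (0.90). Over the 10 OL libraries, Trmt5 was most like Gnpnat1 (0.93), Zfp787 (0.93) and Hyal2 (0.92), and Lcmt2 like Rcor1 (0.89), Pqlc2 (0.85) and Angptl2 (0.85). No member was among the 3 most alike of another. Between Tyw1 and Trmt12 r was 0.00, between Ftsj1 and Thada it was 0.05, and the pair most alike over 25 libraries was Tyw1 and Thada (0.41). Over the 10 OL libraries Lcmt2 was closest to Thada (0.79) and Trmt12 (0.74).

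The other genes of tRNA-Phe were described by the same tests. Of the remaining proteins of the anticodon loop pathway, Wdr6, the other partner of FTSJ1, was measured, whereas no value of Tyw3 or Tyw5 was analysed here. Wdr6 was far above Ftsj1 and Thada, at 149, 101 and 127 FPKM in OPCs and 144 and 152 FPKM in OLs, and was long-lived, at 4.58, 5.79 and 4.61 h and at the ceiling in both OL replicates. Its 0 h difference was 0.25 ± 0.20 (SE; limma adjusted p = 0.361) and its slope difference 0.04 ± 0.06 (0.688). The partners that act with FTSJ1 at its different sites thus differed in level and in half-life in both cell types.

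Of 17 genes for the other modified positions of tRNA-Phe, 16 were listed for both cell types, and at 0 h 6 of them were lower in OLs and 0 higher (limma adjusted p under 0.05; 10 and 0 at an unadjusted p under 0.05), where 17.5% of all shared transcripts were lower and 14.1% higher at that adjusted p and 23.6% and 19.9% at the unadjusted p, with a median difference of -0.64 against -0.01 over all transcripts. They were Trub1 (-1.44 ± 0.27, SE, in log2(FPKM + 1)), a pseudouridine synthase, Trmt61a (-1.27 ± 0.35), the catalytic partner of Trmt6 in adenosine methylation, Mettl1 (-1.15 ± 0.31), a guanosine methyltransferase, Dus1l (-0.94 ± 0.23), a dihydrouridine synthase, Trmt2a (-0.88 ± 0.21), a uridine methyltransferase, and Nsun2 (-0.57 ± 0.19), a cytosine methyltransferase. Of the 3 subunits and forms of phenylalanyl-tRNA synthetase, Farsa was lower (-0.54 ± 0.18) and Farsb and Fars2 did not pass, a count too small to set against that background. Of 11 other ribose methyltransferases and their like, 6 were listed for both, of which Fbl, the rRNA enzyme fibrillarin, was lower (-1.18 ± 0.17) and 0 were higher, a share near the 17.5% of all transcripts.

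In half-life, 0 of these 26 genes passed by limma, and at an unadjusted p under 0.05 it was 5 longer and 0 shorter, a share near the 22.2% and 0.801% of all transcripts. In slope, 12 of the 26 were shallower in OLs and 0 steeper, against 25.2% of all shared transcripts shallower, and the median difference of the 26 was 0.25 against 0.14 over all. The largest was that of Trmt2a, at 0.64 ± 0.10 log2 units per h (SE; limma adjusted p = 0.000232). With libraries scaled to the 0 h median, 2 of the 26 were shallower and 1 steeper, against 148 shallower and 266 steeper of 8177 shared transcripts. Thada, with the 0 h difference of -1.0 given above, lay within the range of the genes that were lower. Of the proliferation markers, Ccnb1 and Top2a were lower in both OL replicates at 0 h, Top2a narrowly (33.7 to 130 FPKM in OPCs, 32.2 and 13.9 in OLs). Mki67 overlapped (8.46 to 41.3 in OPCs, 10.4 and 4.73 in OLs), and Cdk1 was listed for OPCs alone. Their summed FPKM (191 to 320 in OPCs, 21.1 to 53.5 in OLs) thus covers unlike sets of genes. The part of these markers in the lower levels of Thada and of the genes above was not tested.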

How the data were processed

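Single-read libraries of 5-EU-labelled RNA from 25 samples (15 OPC, 10 OL) were used, and 1 OPC control without biotin was not analysed here. The authors aligned reads to GRCm38 with HISAT2 2.1.0 and tabulated FPKM with StringTie 1.3.5 and ballgown over canonical coding transcripts of a GENCODE annotation. Their filter left out transcripts below 1 FPKM at 0 h and those at 0 FPKM at 1 and 2 h. Which part of it left out a member in OPCs was not analysed. By their methods, the deposited FPKM of each time point was normalised to 5-EU-labelled spike-in RNA. An error of a library's spike-in factor moves all its transcripts together, and the 0 h columns, written with up to 6 decimals where later columns hold at most 6 significant digits, are read here as unscaled, which differs from that statement and was not otherwise tested. Half-lives in hours, deposited for each replicate, had been estimated by the authors from least absolute deviations, and values at the ceiling were set here to exactly 6 h. Read counts are unknown, so no counting error is given, and a value listed at 0 may be a low one.

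All fits used limma 3.58.1 in R 4.3.3 over all transcripts with Benjamini-Hochberg adjustment and a threshold of 0.05. Levels at 0 h and slopes were tested on log2(FPKM + 1) with a trended prior, which understates changes of low transcripts, and half-lives on a log2 scale. Slopes within a cell type had replicate as a term, and differences of slopes compared 1 least-squares slope per replicate. All members had a mean of at least 5 FPKM at 0 h. Single values were compared by exact two-sided permutation of 3 against 2 replicates (10 splits) in scipy 1.17.1. Alternatives changed the pseudocount, the filter, the scaling, the half-life fit and the replicates used; the least-squares half-lives, the mean relative level and the median-scaled share at 6 h were chosen after seeing the data. Statistics were tested on simulated data. Sequences and coordinates came from GENCODE M21 transcripts matched by identifier (10090 of 10104 usable). The members, gene lists and tests were chosen with earlier results of these data known; all members are named, with those of the other lists that passed at 0 h or in half-life and a few more. Replicates are separate cultures per the study, and the OLs match 2 of the OPC replicates, whose numbers are not given.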

Additional observations from a re-analysis of the deposited data

Results flagged for a closer look

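The following 2 differences between the cell types in the decline of labelled mRNA passed the test of the difference itself. The slope of Tyw1 was shallower in OLs than in OPCs by 0.33 log2 units per h and that of Thada by 0.31, with limma adjusted p of 0.0207 and 0.0287, while 25.2% of all shared transcripts were shallower in OLs by the same test. Both calls were lost with libraries scaled to the 0 h median, at 0.17 (limma adjusted p = 0.331) for Tyw1 and 0.25 (0.324) for Thada. The median of all transcripts was -0.03 there. Both were lost also with a pseudocount of 0.1, at 0.44 (0.0709) and 0.51 (0.109), and without either OL replicate. The differences were 0.37 and 0.23 without OL replicate 1 and 0.29 and 0.39 without OL replicate 2. The Thada call was lost also without the 6 h libraries (adjusted p = 0.159), OPC replicate 2 (0.0719) or OPC replicate 3 (0.0699). No group held enough replicates for a search for single replicates that stand apart.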

How the results depend on the processing

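Of 214 values of members under the alternatives, 174 kept their sign and their side of the threshold, 23 kept the sign and lost the call, 3 gained it and 14 changed sign. None of the 14 was called in either fit, except the slopes of Ftsj1, called on the spike-in scale. The half-life difference of Trmt12 became -0.068 with 1 mean decay curve, -0.79 centred on the replicate median and -1.09 percentile points in rank, and without single replicates ran from -0.57 to 0.79. That of Thada became -0.32 without the 6 h libraries, -0.46, -0.73 and -12.5 percentile points under the same 3 scalings in turn, and without single replicates ran from -0.29 to 0.64. With libraries scaled to the 0 h median, the Ftsj1 slope became 0.048 in OPCs and 0.041 in OLs, and the slope differences of Trmt12 and Ftsj1 became -0.019 and -0.017. Calls at 0 h over all transcripts numbered 2586 and ran from 1183 (without OL replicate 1) to 2912 without single replicates; it was 1464 without OL replicate 2 and 1446 without OPC replicate 3. Half-life calls numbered 287 and became 30 without the 6 h libraries, 1 centred on the median, 23 in rank, 24 with least squares (19 longer, 5 shorter) and 167 to 236 without single replicates (167 without OPC replicate 2, 169 without OL replicate 1, 173 without OPC replicate 1). Slope difference calls numbered 2073 and became 905 with a pseudocount of 0.1, 414 scaled to the 0 h median and 681 to 2352 without single replicates (681 without OL replicate 1, 803 without OL replicate 2). Members whose share kept at 6 h was higher in both OL replicates numbered 4, and 1 when divided by the library median, a scaling chosen after seeing the data. The causes were not tested.

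Same-numbered replicates of the cell types had r across transcripts of 0.0589 and 0.0102 at 0 h and of -0.00162 and -0.105 in half-life. Pairs of unlike number reached 0.0897 at 0 h and 0.105 in half-life. The deviations of 2 OL replicates mirror each other, so these r cannot show or exclude pairing. The study does not give which numbers match, and they were not read as pairs. With a replicate block, limma called 2253 transcripts at 0 h, 0 in half-life (1554 at an unadjusted p under 0.05) and 2360 in slope difference, and the 0 h difference of Thada had an adjusted p of 0.0559. No replicate block in the slopes gave 7392 calls in OPCs against 7421 and 6445 in OLs against 6909. Depth is unknown, and levels under about 1 FPKM late in the chase limit slopes and half-lives of these low transcripts.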
